A study of Homo sapiens with 16 samples.

Results

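The transcripts of 10 genes of autophagy were measured over 45 h in MCF10HER2 cells exposed to CP724,714, a small molecule that inhibits the HER2 kinase. The genes, found in the table by their symbols, were SQSTM1, MAP1LC3B, GABARAP, GABARAPL1, GABARAPL2, ULK1, BECN1, ATG5, ATG12 and WIPI1. Each had 1 probe, so that 10 of the 20589 probes on the array are described, and all 10 were among the 12321 probes that were tested. MCF10HER2 is a line made from MCF10A, a nontransformed human mammary epithelial line, by transduction for stable over expression of HER2. It was kept without serum or insulin and with EGF, and these conditions were shared by every culture. The series has 1 untreated culture at 0 h and 15 parallel cultures treated with CP724,714 at 1 µM, 1 for every 3 h from 3 to 45 h, with 1 array each and no replicates, and it asks which transcripts depend on HER2 signaling. Fresh medium came with the inhibitor and the only untreated culture is that of 0 h, so an effect of the inhibitor, of fresh medium and of time in culture cannot be told apart.

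Autophagy encloses cytoplasm or marked cargo in a double membrane, the autophagosome, which then fuses with the lysosome. The ULK1 kinase starts the process, a lipid kinase complex with Beclin 1 (BECN1) marks the membrane, WIPI proteins bind that mark, and the ATG12-ATG5 conjugate helps to attach the ATG8 proteins to the growing membrane. The ATG8 proteins fall into the LC3 group, here MAP1LC3B, and the GABARAP group, here GABARAP, GABARAPL1 and GABARAPL2. SQSTM1, also called p62, is a cargo receptor that binds ubiquitin on one side and ATG8 proteins on the other, and it is itself degraded by autophagy. Autophagy is known to be held back by growth factor signaling through the mTOR kinase, and the transcript levels given here measure neither protein nor autophagic flux.

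Signals are given on the log2 scale after background correction, with an offset of 16, and quantile normalization, so that a step of 1 is a doubling. A change of a dim probe is understated after this processing. Levels are compared only within a probe. The number of detected probes per array was 10363 to 11436, and the arrays of 9 h and 18 h were dim. The background signal was 135.9 to 148.9 on the arrays from 0 to 21 h and 164.5 to 173.9 on the arrays from 24 to 45 h, so these form 2 array sets that coincide with early and late time, and a step in level between 21 h and 24 h cannot be told apart from a difference between the sets. For this reason changes were also fitted within each set. Of 8 epithelial markers 5 were detected on all 16 arrays, while KRT14 was detected on 1 array. Of 4 fibroblast markers 3 were detected on none, but PECAM1 of the endothelial and CD14 of the leukocyte markers were detected on all 16. The 2 ERBB2 probes were detected on 7 arrays and on 1 array, and whether they read the introduced transcript is not given, so the over expression was not checked here. In RNA from whole cultures, fewer cells that express a gene and less of its RNA per cell cannot be told apart.

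Time dependence was tested in limma by a moderated F-test of a smooth curve through the 16 arrays, a natural cubic spline with 4 degrees of freedom, with p-values adjusted by Benjamini-Hochberg over all 12321 tested probes and 0.05 as the threshold. Since no time point has a replicate, the error is the scatter of the arrays about the curve. Of the 10 genes, 7 passed: SQSTM1, MAP1LC3B, GABARAPL1, GABARAPL2, WIPI1, ULK1 and GABARAP. The same was true of 41.9% of all tested probes. BECN1, ATG5 and ATG12 did not pass, with adjusted p of 0.875, 0.38 and 0.334. The median height of the fitted curve, from its lowest to its highest point, was 1.16 over the 10 genes and 0.26 over all tested probes. These probes were not matched for brightness, and the processing understates the changes of dim ones. With a term for the array set, 4 of the 10 genes passed in limma, SQSTM1, MAP1LC3B, GABARAPL2 and WIPI1, against 29.0% of all tested probes.

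**Figure D1:**
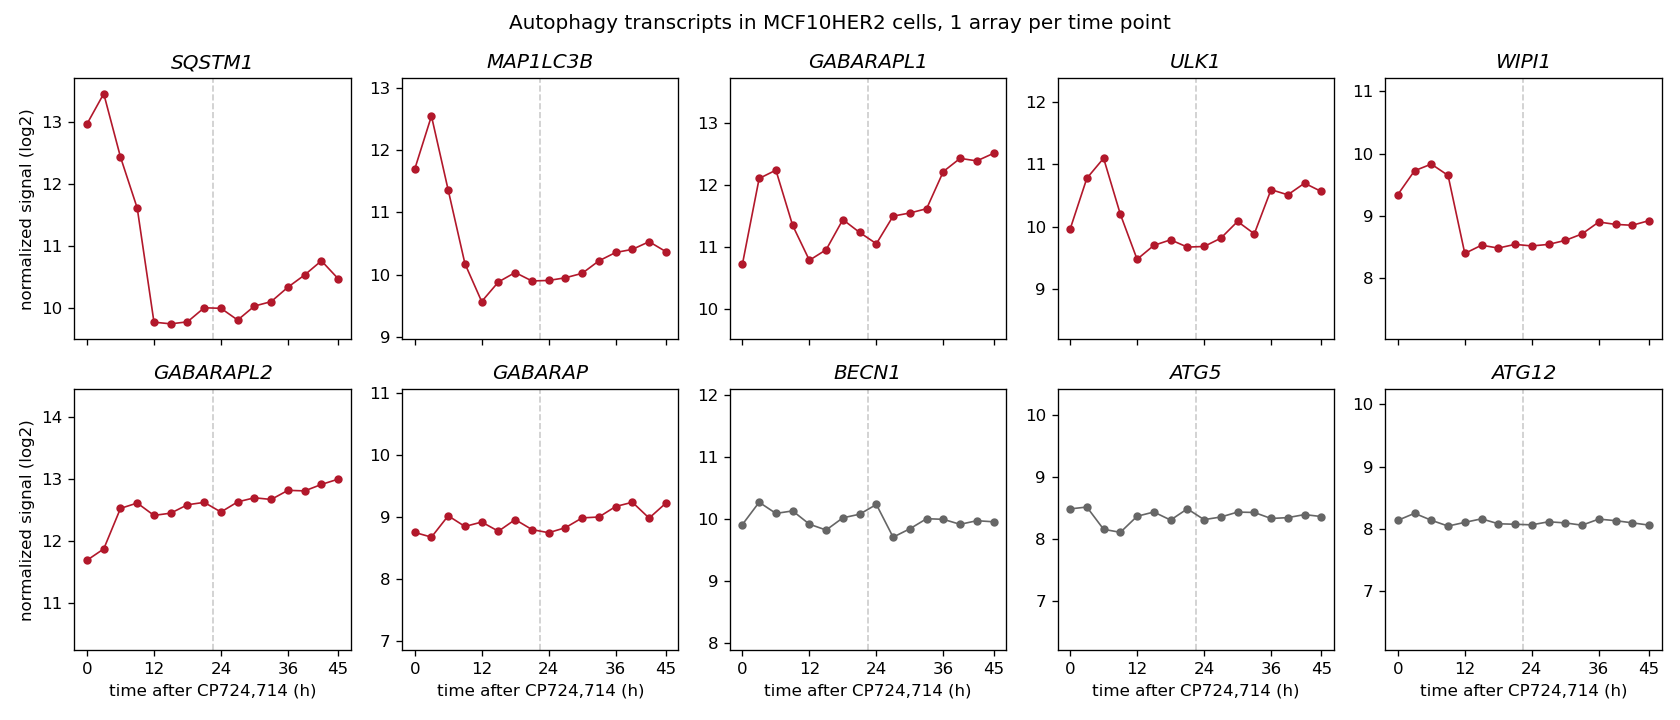
Normalized log2 signal (vertical axes, each spanning the same number of log2 units) against hours after CP724,714 (horizontal axes) for the 10 autophagy genes, 1 point per array. Red marks the 7 genes past the threshold of the spline fit, gray the other 3, and the dashed line separates the 2 array sets. SQSTM1 was highest at 3 h (13.45) and lowest at 15 h (9.74), while BECN1, ATG5 and ATG12 stayed within 0.56, 0.41 and 0.21 log2 units.

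The cargo receptor SQSTM1 showed the tallest curve of the 10 genes, with its peak at 3 h, a steep fall over the first 21 h and a partial return on the later arrays. Every 3 h from 0 to 21 h, in order of time, its log2 signal was 12.96, 13.45, 12.43, 11.61, 9.77, 9.74, 9.77 and 10.00. In the same order from 24 to 45 h the values were 9.99, 9.80, 10.03, 10.10, 10.33, 10.53, 10.76 and 10.47. The 4 arrays from 0 to 9 h were thus the highest of the course, and no later array came within their range. The signal at 3 h was 13.1-fold that at 15 h, and the step from 9 to 12 h alone was 3.57-fold. The fitted range of 3.97 was the fifth tallest of all tested probes (limma adjusted p = 9.23e-06). At 45 h the level at 0 h was still 5.63-fold higher. Along a straight line through all arrays SQSTM1 fell by 2.23 over 45 h (SE 0.72, limma adjusted p = 0.0305), but this call rested on the first arrays: without the 0 h, 3 h or 6 h array the change was -1.74, -1.60 and -1.97 with adjusted p of 0.123, 0.106 and 0.0691, and with array weights, which count arrays with much scatter less, it was 0.41 (adjusted p = 0.513).

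Among the ATG8 genes, MAP1LC3B ran close to SQSTM1. MAP1LC3B encodes LC3B, the ATG8 protein most used as a marker of autophagosomes. Every 3 h from 0 to 21 h, in order of time, its log2 signal was 11.70, 12.55, 11.36, 10.18, 9.57, 9.88, 10.03 and 9.90. In the same order from 24 to 45 h it was 9.90, 9.95, 10.02, 10.22, 10.36, 10.41, 10.53 and 10.37. As for SQSTM1, the peak was at 3 h, at 1.81-fold the level at 0 h, but the lowest array was that of 12 h, 7.94-fold below the peak. The fitted range was 2.58, rank 42 of all tested probes (limma adjusted p = 2.62e-04). The straight line through all arrays gave -1.10 over 45 h and did not pass (limma adjusted p = 0.138).

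SQSTM1 and MAP1LC3B had the largest changes and followed each other, so the bases before their starts are shown, with those of GABARAPL1, the gene with the steepest late slope. Windows from 250 bases before to 50 bases after each RefSeq start (GRCh38.p14) were searched on both strands for 4 motifs: CACGTG, the E-box bound by TFEB and related factors; TGTTTAC, bound by forkhead factors; TGACNNNGC, the core of the antioxidant response element bound by NRF2; and TGATGNAA, bound by ATF4. Capitals mark a match, and each line gives the 250 bases before a start, 5′ to 3′ along the gene.
MAP1LC3B, chr16:87392086-87392335, plus strand: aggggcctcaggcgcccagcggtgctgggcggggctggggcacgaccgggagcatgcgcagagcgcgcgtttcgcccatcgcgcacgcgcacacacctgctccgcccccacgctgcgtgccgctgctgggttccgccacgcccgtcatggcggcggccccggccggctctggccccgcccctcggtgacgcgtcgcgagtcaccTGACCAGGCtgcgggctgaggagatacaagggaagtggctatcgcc
SQSTM1, the most downstream of 3 starts, chr5:179820655-179820904, plus strand: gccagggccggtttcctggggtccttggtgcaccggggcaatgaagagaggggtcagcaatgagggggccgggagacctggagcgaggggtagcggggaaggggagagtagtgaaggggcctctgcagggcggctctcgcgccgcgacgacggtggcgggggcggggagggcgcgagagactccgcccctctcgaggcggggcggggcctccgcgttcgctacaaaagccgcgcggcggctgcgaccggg
GABARAPL1, chr12:10212627-10212876, plus strand: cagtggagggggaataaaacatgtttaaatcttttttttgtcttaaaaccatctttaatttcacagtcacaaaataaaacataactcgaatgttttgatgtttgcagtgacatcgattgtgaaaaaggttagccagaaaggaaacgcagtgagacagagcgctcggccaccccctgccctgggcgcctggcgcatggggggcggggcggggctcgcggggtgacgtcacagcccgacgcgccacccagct

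MAP1LC3B held the core of the antioxidant response element from -46 to -38 relative to its start, on the plus strand. No other match was found in the 13 windows of the 10 genes, which include 3 starts of SQSTM1 and 2 of ATG5. Over all 35116 windows of the same length, the shares with a match were 7.26% for the E-box, 3.42% for the forkhead motif, 13.3% for the antioxidant core and 3.62% for the ATF4 motif. A match is a description of these letters only, and a window without one says nothing on sites elsewhere.

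No gene of the GABARAP group was 1.7-fold or more below its 0 h level at any time point. Only 9.47% of all tested probes were, so this does not set the group apart. GABARAPL1, whose product also takes part in receptor transport, had an early peak, a dip and a late rise. Every 3 h from 0 to 21 h, in order of time, its log2 signal was 10.73, 12.11, 12.24, 11.35, 10.79, 10.96, 11.45 and 11.24. In the same order from 24 to 45 h the values were 11.06, 11.50, 11.55, 11.62, 12.22, 12.43, 12.39 and 12.51. The untreated array was the lowest of the 16, and 3 of the 4 arrays from 36 to 45 h lay above the early peak. The level was 2.86-fold that of 0 h at 6 h and 3.45-fold at 45 h. The fitted range was 1.47 (limma adjusted p = 0.0136; 0.0807 with a term for the array set). The line through all arrays rose by 1.08 over 45 h (SE 0.38, limma adjusted p = 0.0417). This call was lost on leaving out any one of the 0, 9, 12, 15, 18, 36, 39, 42 or 45 h arrays. The values were then from 0.92 to 1.09 and the adjusted p from 0.0506 to 0.128. It was also lost with a term for the array set (1.23, adjusted p = 0.392) and with no detection filter (0.0634). The same held with no mean-variance trend (0.066) and without the dim arrays (0.0637).

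GABARAPL2, also known as GATE-16 and linked to transport within the Golgi, rose early and rose further on the late arrays, from 12.46 at 24 h. The signal was lowest at 0 h (11.69), reached 11.87 at 3 h and 12.52 at 6 h, had a median of 12.61 over the 16 arrays and was highest at 45 h (12.99). From 6 h on, every array lay above those of 0 h and 3 h. It rose by 0.91 over 45 h along the line (SE 0.15, limma adjusted p = 3.23e-04), and the spline had an adjusted p of 7.09e-05. At 45 h the level was 2.47-fold that of 0 h.

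GABARAP itself changed little. Its log2 signal was lowest at 3 h (8.67), with a median of 8.94, and highest at 39 h (9.24). The spline gave a fitted range of 0.44 (limma adjusted p = 0.0232) and the line a rise of 0.39 over 45 h (SE 0.12, limma adjusted p = 0.0216). The spline call was lost without the 36 h, 39 h or 45 h array (adjusted p of 0.0538, 0.0737 and 0.0795) and with a term for the array set (0.115). The linear call was lost without the 3 h, 39 h or 45 h array (0.0512, 0.057 and 0.0701) and with a term for the array set (0.189). In all, 3 of the 10 genes rose along the line through all arrays, against 12.9% of all tested probes, and 1 fell, against 11.5%.

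The probes of MAP1LC3B and GABARAPL1 may share signal with near-identical copies, MAP1LC3B2 and the transcribed pseudogene GABARAPL3, since probe sequences were not used here and the transcript each probe reads is not known. For the same reason no isoform can be named for any of the 10 genes.

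ULK1, the kinase that starts autophagosome formation, and WIPI1, which binds the lipid mark on the forming membrane, had an early peak at 6 h, a low stretch from 12 h and a rise at the end. Every 3 h from 0 to 21 h, in order of time, the log2 signal of ULK1 was 9.96, 10.78, 11.10, 10.20, 9.47, 9.70, 9.79 and 9.67. In the same order from 24 to 45 h it was 9.68, 9.81, 10.08, 9.88, 10.59, 10.51, 10.70 and 10.56. The 4 last arrays lay above all from 9 to 33 h and below those of 3 h and 6 h. The spline was past the threshold by little (fitted range 1.07, limma adjusted p = 0.0275). It lost the call without the 3 h, 21 h or 42 h array (0.0509, 0.0563 and 0.0514) and without both dim arrays (0.0729). The call was also lost with a term for the array set (0.0504) and with no mean-variance trend (0.0675). The ULK1 probe had a deposited intensity of 767 to 2342, well over the background, yet its detection p was under 0.05 on only 6 arrays and reached 0.277 on others, so its values carry more doubt than those of the other 9 genes, whose probes were detected on all 16 arrays. Of 3979 probes with an intensity over 500 on every array, 83 shared this feature of not being detected on all 16.

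Every 3 h from 0 to 21 h, in order of time, WIPI1 had log2 signals of 9.34, 9.72, 9.83, 9.65, 8.39, 8.52, 8.48 and 8.54. In the same order from 24 to 45 h the values were 8.51, 8.54, 8.60, 8.70, 8.90, 8.86, 8.84 and 8.92. As with SQSTM1, the 4 arrays from 0 to 9 h stood above the other 12, and the step from 9 to 12 h was 2.39-fold. The fitted range was 1.33 (limma adjusted p = 0.00328). Neither ULK1 nor WIPI1 passed along the line through all arrays, with changes of 0.22 and -0.72 (limma adjusted p of 0.713 and 0.111).

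BECN1, the scaffold of the lipid kinase complex, ran between 9.71 at 27 h and 10.27 at 3 h, with a median of 9.98. The change along the line through all arrays was -0.14 (limma adjusted p = 0.502). ATG5 lay between 8.10 at 9 h and 8.51 at 3 h with a median of 8.36, and ATG12 between 8.04 at 9 h and 8.25 at 3 h with a median of 8.10. Their lines changed by 0.02 and -0.06 (limma adjusted p of 0.882 and 0.289). The 3 genes thus have no call in any of the fits, and the signals of ATG5 and ATG12 lay near the low end of the scale, where the processing compresses differences most. The line of ATG12 changed by -0.05 with an offset of 50 and by -0.16 with no background correction.

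**Figure D2:**
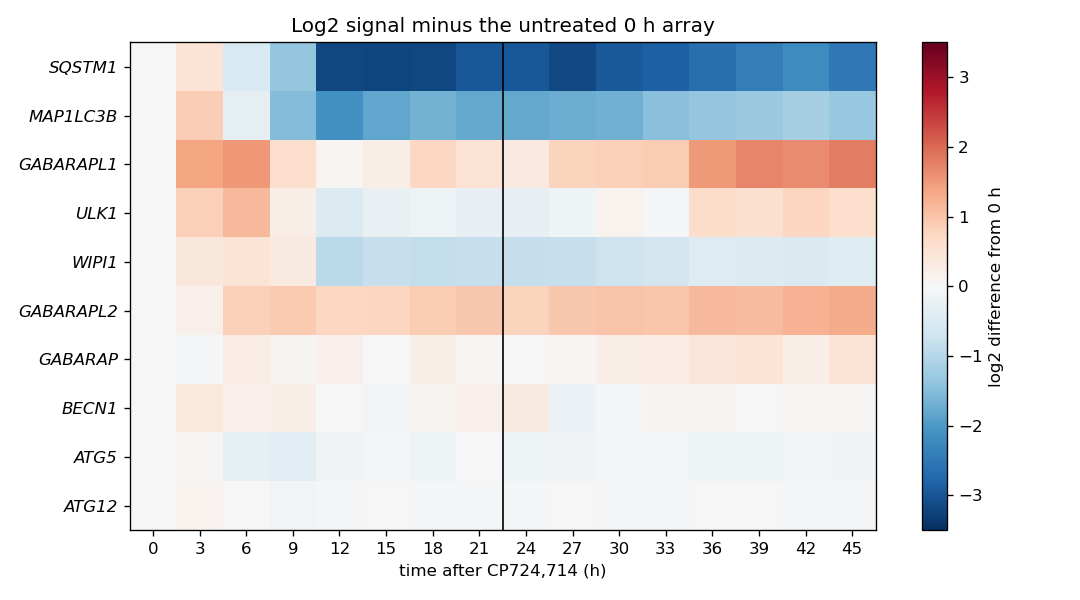
Log2 signal of each gene at each time point minus its own value on the untreated 0 h array (color scale, red above and blue below), with hours after CP724,714 on the horizontal axis and a vertical line between the 2 array sets. SQSTM1, MAP1LC3B and WIPI1 were below 0 h from 12 to 45 h, while GABARAPL1 and GABARAPL2 were above it at every time point.

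The threshold of the study is 1.7-fold at any time point, and the 0 h array was taken as the baseline here. By this threshold 6 of the 10 genes moved, against 2398 of the 12321 tested probes. As a description with no error term, GABARAPL2 was past it upward at 12 time points, GABARAPL1 at 9, ULK1 at 2 and MAP1LC3B at 1, that is 4 genes, against 10.9% of all tested probes. Downward, SQSTM1 and MAP1LC3B were past it at 13 time points and WIPI1 at 6, that is 3 genes, against 9.47% of all tested probes. MAP1LC3B was the only one of the 10 past the threshold in both directions, upward at 3 h and downward from 9 h on.

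Slopes were then fitted within the array sets. In a fit with a level and a slope for each set, 4 genes fell from 0 to 21 h, against 15.6% of all tested probes. The slopes per 21 h were -4.08 for SQSTM1 (limma adjusted p = 4.93e-05), -2.52 for MAP1LC3B (7.35e-04), -1.42 for WIPI1 (0.00181) and -0.99 for ULK1 (0.0431). The ULK1 call did not hold up. It was lost when arrays were scaled by their medians instead of quantiles (-0.50, adjusted p = 0.326), with no detection filter (0.065), with no mean-variance trend (0.0704), with array weights (0.0671), without the dim arrays (0.0749), and on leaving out any one of the 3, 6, 15, 18, 21, 24, 27, 30, 39, 42 or 45 h arrays (0.0505 to 0.151). Only GABARAPL2 rose over these hours, by 0.80 (0.0037), against 14.6% of all tested probes. With the 0 to 21 h arrays fitted alone in limma, a fit added after the data were seen, SQSTM1, MAP1LC3B and WIPI1 fell (adjusted p of 0.00905, 0.0231 and 0.0362), against 5.49% of all tested probes, GABARAPL2 was no longer past the threshold (0.0542), and SQSTM1 was the only one left without the 3 h, the 15 h or the 18 h array.

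From 24 to 45 h the 7 time-dependent genes all rose when these arrays were fitted alone. In the fit over both sets GABARAPL1 alone rose, by 1.49 per 21 h (limma adjusted p = 0.0427), against 2.88% of all tested probes. This call was lost with no detection filter (0.0678), with no mean-variance trend (0.0743), without the dim arrays (0.0531), and on leaving out any one of the arrays from 18 to 45 h (0.0516 to 0.209, the last without the 24 h array). That fit takes its error from both sets, and the scatter of the early arrays about a line was large. With the 24 to 45 h arrays fitted alone, again added after the data were seen, 7 of the 10 genes rose, against 12.0% of all tested probes, and none fell, against 12.8%. The slopes per 21 h were 1.49 for GABARAPL1 (SE 0.15, limma adjusted p = 6.69e-05), 1.05 for ULK1 (SE 0.16, 4.40e-04), 0.82 for SQSTM1 (SE 0.15, 0.00126) and 0.62 for MAP1LC3B (SE 0.12, 0.00207). GABARAPL2, WIPI1 and GABARAP rose by 0.47, 0.45 and 0.42 (limma adjusted p of 0.00217, 0.00245 and 0.0169), and GABARAP lost its call without the 24 h or the 45 h array. BECN1, ATG5 and ATG12 had slopes of -0.04, 0.01 and 0.01. Under the other background correction, scaling and offset tried, the slopes of the 7 genes stayed positive. Whether their calls in the late arrays alone hold under those settings was not tested. The median slope over the 10 genes was 0.46, and that over all tested probes was 0.00.

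**Figure D3:**
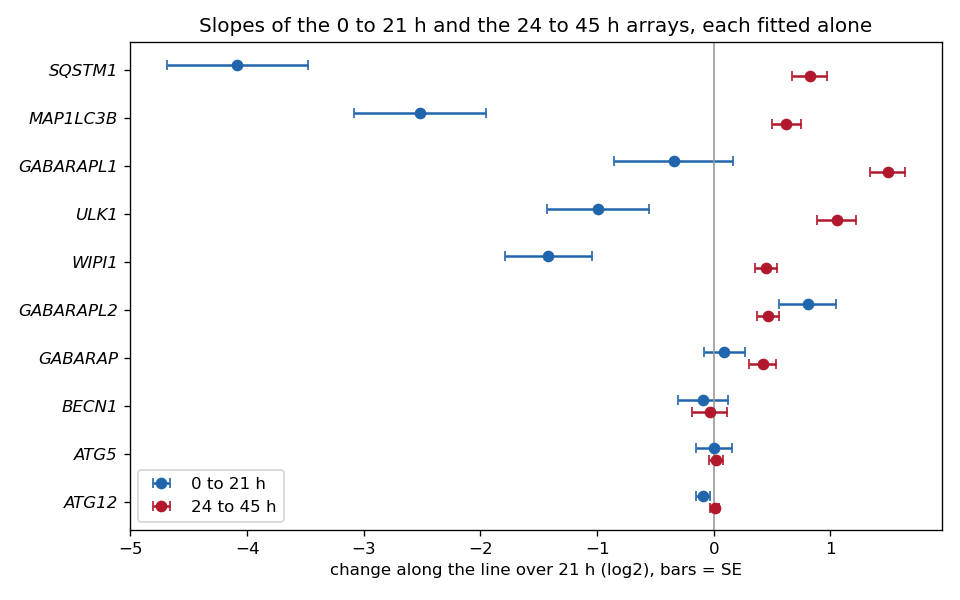
Change in log2 signal along a line per 21 h (horizontal axis) for the 10 autophagy genes, with the arrays of 0 to 21 h (blue) and of 24 to 45 h (red) each fitted alone; bars are 1 SE. The late slopes of 7 genes lie above 0, from 0.42 for GABARAP to 1.49 for GABARAPL1, and the early slopes of SQSTM1, MAP1LC3B, WIPI1 and ULK1 lie below it.

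The arrays from 36 h on stood apart from those just before. For 6 of the 10 genes all 4 arrays from 36 to 45 h lay above all 4 arrays from 24 to 33 h, which belong to the same array set. The same was true of 15.3% of all tested probes. GABARAPL1 ran from 12.22 to 12.51 on the later arrays and from 11.06 to 11.62 on the earlier ones, a ratio of 1.94 between the means. ULK1 ran from 10.51 to 10.70 against 9.68 to 10.08, and SQSTM1 from 10.33 to 10.76 against 9.80 to 10.10. The other 3 genes without overlap were MAP1LC3B, GABARAPL2 and WIPI1, with ratios of 1.31, 1.20 and 1.22 between the means. GABARAP overlapped, from 8.98 to 9.24 against 8.75 to 9.00.

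The slopes of both sets differed for 5 of the 10 genes in limma, each time upward. Of the 12321 tested probes, 1562 (12.7%) differed upward and 1490 differed downward. The late slope minus the early one was 4.90 for SQSTM1 (SE 0.69, limma adjusted p = 6.17e-04), 3.14 for MAP1LC3B (SE 0.63, 0.00285), 2.05 for ULK1 (SE 0.50, 0.00819), 1.86 for WIPI1 (SE 0.41, 0.00444) and 1.84 for GABARAPL1 (SE 0.58, 0.0276). For GABARAPL1 the difference was no longer past the threshold with median scaling, where it was 1.32 (adjusted p = 0.0814), or without the 3 h or the 24 h array (0.0667 and 0.0785).

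The likeness of the courses also differed between the sets. Among the 7 time-dependent genes, Pearson's r over the 8 arrays from 24 to 45 h was between 0.65 and 0.95 for all 21 pairs. Over the 8 arrays from 0 to 21 h it ran from -0.77 to 0.94 and was below 0 for 7 of the 21 pairs, each of them with GABARAPL2 or GABARAP. The pair of SQSTM1 and MAP1LC3B had r of 0.94 in the early and 0.95 in the late set. These values are descriptions over arrays that share a time course and, within a set, a background level, and a common trend in time gives a high r by itself.

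**Figure D4:**
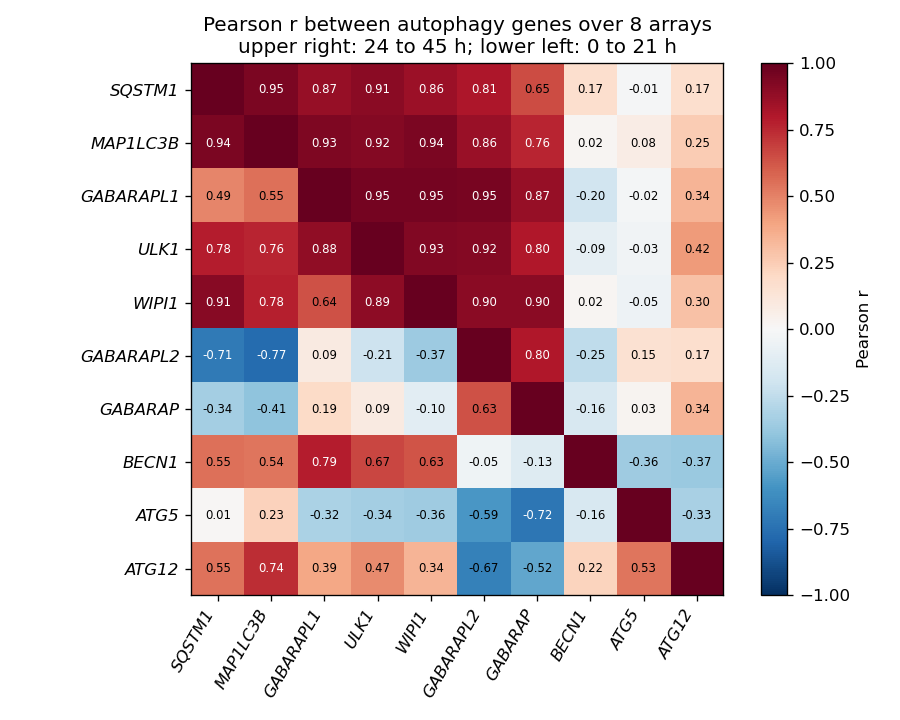
Pearson's r between the log2 signals of the 10 autophagy genes (color scale and printed value), over the 8 arrays of 24 to 45 h above the diagonal and the 8 arrays of 0 to 21 h below it. Above the diagonal the 7 genes in the upper left form a block from 0.65 to 0.95, and below it GABARAPL2 has r of -0.71 with SQSTM1 and -0.77 with MAP1LC3B.

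The genes whose course over the 16 arrays was most like that of SQSTM1, out of 11564 compared, were C20orf18 (now RBCK1, part of a ubiquitin ligase complex; r = 0.98), HIST1H2BJ (a histone; 0.98), CCDC64 (now BICDL1; 0.97), STK11IP (0.97) and TMEM50B (0.97). Of the 10 genes MAP1LC3B ranked 63 (r = 0.94) and WIPI1 ranked 143 (r = 0.92). The values of r were 0.59 for ULK1, 0.53 for ATG12, 0.46 for BECN1 and 0.18 for GABARAPL1. They were -0.01 for ATG5, -0.27 for GABARAP and -0.65 for GABARAPL2, which ranked 9993. The wider set of autophagy genes was not ranked.

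The wider set of 74 other autophagy genes, listed by role from general knowledge, had 67 genes with a probe and 60 that were tested. Of the 60, 28 passed the spline fit in limma, 10 rose and 7 fell along the line through all arrays, and 14 rose and 6 fell on the 24 to 45 h arrays fitted alone. Over all tested probes these shares were 41.9% for the spline, 12.9% and 11.5% for the line, and 12.0% and 12.8% for the late arrays, and the lists by role hold 4 to 18 tested genes each, too few for a share to be read against them. In the initiation complex, 2 of 4 genes passed the spline fit. ATG101 (C12orf44 in the table), a partner of ULK1, went from 10.80 at 0 h to 11.16 at 6 h and then 10.04 at 12 h (limma adjusted p = 0.00763), and ULK2 had a fitted range of 0.11 (0.0405). Of the nucleation complex 1 of 6 passed, NRBF2, which binds the lipid kinase complex (limma adjusted p = 0.0248), and of the lipid transfer and phagophore binding genes 1 of 4, WDR45B (WDR45L in the table), a relative of WIPI1. WDR45B went from 10.03 at 0 h to 10.51 at 3 h, was down to 9.49 at 12 h and ended with 9.59 at 45 h (limma adjusted p = 0.00369).

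In the conjugation machinery, which works with ATG5 and ATG12, 4 of 9 genes passed the spline fit, against 41.9% of all tested probes. From 0 to 21 h 5 of the 9 rose in the fit over both sets, against 14.6% of all tested probes. They were ATG4C, ATG7, ATG10, ATG16L2 and MAP1LC3A. The last 2 were dim, with slopes of 0.11 and 0.06 and detection on 10 and 9 arrays. With the early arrays fitted alone ATG7, ATG16L2 and MAP1LC3A did not pass (limma adjusted p of 0.109, 0.104 and 0.124). On the late arrays fitted alone none rose, against 12.0%, and 1 fell, against 12.8%. This was ATG4C, named after its value was seen, which fell by 0.27 (limma adjusted p = 0.0353). From 0 to 21 h ATG4C had risen by 0.53 (limma adjusted p = 0.00349, and 0.0431 with those arrays alone). It had 8.38 at 0 h and 8.48 at 45 h. ATG7, the activating enzyme of both conjugation reactions, went from 9.43 at 0 h to 8.85 at 6 h and ended with 9.73 at 45 h, and it rose by 0.62 along the line (SE 0.19, limma adjusted p = 0.0247). ATG10 rose from 0 to 21 h by 0.51 in the fit over both sets (limma adjusted p = 0.0281), but not past the threshold with those arrays alone (0.138). ATG4A, a protease that trims ATG8 proteins, fell by 0.19 over 45 h (limma adjusted p = 0.0116).

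The list of cargo receptors other than SQSTM1 also holds FYCO1, which is a transport adaptor. Of this list 5 of 9 passed the spline fit, against 41.9% of all tested probes. On the late arrays alone 4 rose and 1 fell, against 12.0% and 12.8%. FYCO1, which ties autophagosomes to microtubule transport, rose by 0.57 over 45 h (limma adjusted p = 1.70e-04) and CALCOCO2, a receptor for bacteria and other cargo, by 0.31 (1.44e-04). TAX1BP1, a relative of CALCOCO2, went from 11.83 at 0 h to 12.90 at 9 h, then had 12.40 at 24 h and ended with 12.82 at 45 h (limma adjusted p of the spline 0.00281). From 0 to 21 h, where SQSTM1 fell, FYCO1 rose by 0.57 (limma adjusted p = 4.10e-04) and the slopes of CALCOCO2 and TAX1BP1 were 0.14 and 0.14 (0.107 and 0.743). OPTN and TOLLIP of the same list, named after their values were seen, fell over these hours in the fit over both sets. Their early slopes were -0.80 and -0.60 (limma adjusted p of 0.011 and 0.00446). With the early arrays fitted alone neither passed (limma adjusted p of 0.0893 and 0.0551), unlike SQSTM1 (0.00905). On the late arrays alone OPTN and TOLLIP both rose, by 0.85 and 0.24 (limma adjusted p of 1.82e-04 and 0.0113). In the fit over both sets their late slopes had limma adjusted p of 0.0297 and 0.348. CALCOCO2 and TAX1BP1 also rose on the late arrays alone, while BNIP3 fell by 0.61 (limma adjusted p = 0.0486).

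Of the genes for fusion with the lysosome, 5 of 10 passed the spline fit, against 41.9% of all tested probes. VAMP8, a SNARE protein of that fusion, rose by 0.95 over 45 h (SE 0.18, limma adjusted p = 8.42e-04), and VPS16 and VPS41, subunits of the tethering complex, rose by 0.72 and 0.61 (5.63e-04 and 0.0018). Of the regulators 10 of 18 passed, and 4 rose and 4 fell on the late arrays alone, against 12.0% and 12.8% of all tested probes. TP53INP1, which binds ATG8 proteins, went from 10.52 at 0 h to 10.88 at 3 h, was down to 8.67 at 12 h and ended with 9.21 at 45 h (limma adjusted p = 2.08e-04). It also fell from 0 to 21 h, with a slope of -2.12 (limma adjusted p = 7.14e-04), and its late slope was 2.43 above its early one (0.00431). DDIT4, an inhibitor of mTOR signaling, fell by 0.71 over 45 h (limma adjusted p = 9.30e-05), and SESN1, another such inhibitor, went from 9.86 at 0 h to 8.38 at 6 h and ended with 8.54 at 45 h (limma adjusted p of the spline 0.0223).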

How the data were processed

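RNA of 16 parallel MCF10HER2 cultures, 1 untreated and 15 treated, was measured on Illumina human Ref-8 v2 arrays. The authors deposited the intensity of each probe before normalization between arrays and, beside it, a detection p-value. Neither the scanner software nor how the detection p was computed is given in the sources used here. The detection p did not follow the intensity alone. On the 30 h array ULK1, with an intensity of 1816, had a detection p of 0.277, and ATG12, with 344, had 0.0113. For the present work the neqc function of limma 3.58.1, run in R 4.3.3, gave background-corrected, quantile-normalized log2 values (offset 16; negative controls inferred from the detection p-values). A probe was tested if at least 3 arrays had a detection p below 0.05. Linear models with moderated variances (limma, mean-variance trend) were fitted by a spline of 4 degrees of freedom, by a straight line, and by separate slopes for 0 to 21 h and 24 to 45 h, with Benjamini-Hochberg adjustment over all tested probes. The fits were tested on simulated data. The number of arrays limits the precision.

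The 10 genes, the lists and the split at 24 h were chosen with earlier results of these data known. Named genes are the 10 genes, in each list of other autophagy genes up to 3 genes past the spline threshold with the largest linear change, and the 5 genes most correlated with the gene of largest fitted range. Of several probes of a gene, the detected one of highest mean signal was used. Promoter windows are from RefSeq. Alternatives covered background correction, scaling, offset, detection filter, mean-variance trend, array weights, spline, array set and single arrays. No values of the study's own comparisons were used.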

Additional observations from a re-analysis of the deposited data

Results flagged for a closer look

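For 5 of the 10 genes the slope over the arrays from 24 to 45 h differed from that over the arrays from 0 to 21 h by limma's test of the difference. By the same test, 1562 of the 12321 tested probes had a late slope above the early one and 1490 had one below it. The late slope minus the early one, in log2 units per 21 h, was 4.90 for SQSTM1, 3.14 for MAP1LC3B, 2.05 for ULK1, 1.86 for WIPI1 and 1.84 for GABARAPL1, with adjusted p of 6.17e-04, 0.00285, 0.00819, 0.00444 and 0.0276. These hours are also the 2 array sets, so a difference between times and one between sets cannot be told apart.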

How the results depend on the processing

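Of the 10 genes, 7 passed the spline fit, and between 4 and 7 did so under the other settings, with 4 when the array set was a term in the fit and 6 or 7 when a single array was left out. The linear trend was called for 4 genes, for 2 without the mean-variance trend, for 1 with the array set as a term, and for 2 to 4 with a single array left out, with 2 without the 0 h, 3 h, 39 h or 45 h array. The linear change of SQSTM1 turned from -2.23 to 0.41 with array weights (limma adjusted p = 0.513). Slopes that differed between the sets were found for 4 or 5 genes throughout. The slope from 0 to 21 h was called for 5 genes in the fit over both sets and for 3 in the early arrays alone, or 1 to 4 with a single array left out. The slope from 24 to 45 h was called for 1 gene and, in the late arrays alone, for 7, or for 6 or 7 with a single array left out. ULK1 was not tested where detection on all 16 arrays was required. Changes of 1.7-fold from 0 h were seen for 6 genes, against 2398 of the 12321 tested probes, and for 5 to 7 genes under other settings. The causes of these differences were not tested. For single genes and fits, 407 values kept their direction and side of the threshold under the other settings fixed at the start, 22 lost and 5 gained the call and 1 reversed. With single arrays left out, 753 stayed, 44 lost and 3 gained the call. A different probe of the same gene could not be tried because each gene had 1 probe. No paired analysis was possible because only 1 array was made per time point. Signal over background limits ATG5 and ATG12 most, whose small changes the processing compresses.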
